A study of Mus musculus with 138 samples.

Results

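Collagens are the main structural proteins of bone and of the connective tissue between bones, and the 44 mouse genes described here encode their alpha chains. The genes were chosen by name alone, as all genes whose symbol reads Col, a number, the letter a and a number, and no measured value entered that rule. They were 44 of the 55487 genes in the count tables and lay on 15 chromosomes. By the protein they encode, they comprised 11 fibrillar collagens, 9 fibril-associated collagens with interrupted triple helices (FACITs), 6 beaded-filament chains of collagen VI, 6 basement membrane chains of collagen IV, 3 hexagonal-network chains, 4 transmembrane collagens, 2 multiplexins, the anchoring fibril collagen Col7a1, and Col26a1 and Col28a1, which were kept apart as others. For testing, a gene needed at least 1 CPM (a count scaled to library size) in more than 10% of the libraries. Of the 44 genes, 41 met this filter, and Col19a1, Col6a4 and Col6a5 did not, their highest values in any library being 1.27, 2.84 and 3.53 CPM.

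The tissue came from wild-type C57BL/6J mice in all groups, with no altered allele and no agent. Calvarial sutures are the fibrous joints of the skull vault, and from sections of each suture laser capture microdissection took the suture mesenchyme (SM) and the osteogenic fronts (OFs), the growing bone edges on either side of it, at embryonic days E16.5 and E18.5. The coronal suture gave SM, frontal OF and parietal OF, the frontal suture SM and frontal OF, the lambdoid suture SM, interparietal OF and parietal OF, and the sagittal suture SM and parietal OF, each with 5 RNA-seq libraries, which made 20 groups and 100 libraries (40 of SM and 60 of OFs) from 40 embryos in 8 sets of suture and age. A further 18 second libraries from the coronal groups, 16 libraries of complete sutures at E18.5 and 4 single-cell libraries of coronal sutures, 2 at each age, were used where named. A captured region is a piece of tissue with several cell types, so in these libraries fewer cells of a type and less RNA per cell cannot be told apart.

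Total gene counts ran from 7305627 to 34518477 in the 100 libraries. Those of the coronal suture were deeper (20133332 to 34518477) than those of the other sutures (7305627 to 18450955), and the share of mitochondrial counts reached 52.4% in coronal libraries at E16.5, with 1 frontal-suture OF library at E18.5 at 52.3%. The second coronal libraries held 5530060 to 17388841 counts with a mitochondrial share of at most 17.2%. Library set and suture cannot be told apart in comparisons of the coronal suture with the others, and values with the second libraries are given for most of the genes named there. The second libraries carry the same embryo identifiers as the first, with 3 per group against 5, and the labels do not say whether they were made from the same RNA, so they are not independent samples. In fits with the second libraries, each took the place of its first library, and first libraries without a second one stayed in. At E18.5 this put both kinds of library within replicates 4 and 5. The OFs carried the marks of their label: the summed level of 12 osteoblast genes was 2756 to 23323 CPM in OFs against 371 to 2296 CPM in SM. The sums of 9 suture mesenchyme genes overlapped, at 1467 to 5438 CPM in SM and 947 to 4430 CPM in OFs. Of these genes 7 were lower and 1 was higher in OFs in the mean comparison below.

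A collagen molecule is a triple helix of alpha chains, which are hydroxylated and folded in the endoplasmic reticulum, secreted, trimmed at their ends and cross-linked outside the cell. Type I collagen, made of the Col1a1 and Col1a2 chains, forms the fibrils that carry mineral in bone. Types III and V join it in soft connective tissue, types II, IX and XI build cartilage fibrils, FACITs sit on fibril surfaces, type IV forms the sheet of basement membranes around vessels, and type VI forms beaded filaments around cells. Osteoblasts at the edge of a membrane bone lay down a matrix rich in type I collagen without a cartilage template.

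Of the genes tested, 7 were called in one direction in all 8 sets of suture and age: Col11a2, Col13a1, Col22a1 and Col24a1 were higher in OFs in each, and Col27a1, Col3a1 and Col8a2 were lower in each. Their promoters are shown because these are the genes that moved the same way in each set. The sequences are the 250 bases before the gene's annotated start, from RefSeq on GRCm38.p6, written on the gene's strand, and 35 of the 44 genes, with 38 promoters, had an entry, Col22a1 not among them. Capitals mark the letters TATAAA, found on either strand. The other letters searched for, on both strands, were TGTGGT and CCAAT, which overlap neither each other nor TATAAA within these 6 windows because neither occurs in them. The first 3 sequences belong to genes that were higher in OFs and the last 3 to genes that were lower. The positions are chr17:34038888-34039137 for Col11a2 (plus strand), chr10:61979109-61979358 for Col13a1 (minus strand), chr3:145292222-145292471 for Col24a1 (plus strand), chr4:63215162-63215411 for Col27a1 (plus strand), chr1:45311288-45311537 for Col3a1 (plus strand) and chr4:126286544-126286793 for Col8a2 (plus strand).
Col11a2: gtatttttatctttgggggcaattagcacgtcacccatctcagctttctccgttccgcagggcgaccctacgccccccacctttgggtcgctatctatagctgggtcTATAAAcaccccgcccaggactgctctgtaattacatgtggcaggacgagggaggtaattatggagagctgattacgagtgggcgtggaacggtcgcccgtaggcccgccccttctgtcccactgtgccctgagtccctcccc
Col13a1: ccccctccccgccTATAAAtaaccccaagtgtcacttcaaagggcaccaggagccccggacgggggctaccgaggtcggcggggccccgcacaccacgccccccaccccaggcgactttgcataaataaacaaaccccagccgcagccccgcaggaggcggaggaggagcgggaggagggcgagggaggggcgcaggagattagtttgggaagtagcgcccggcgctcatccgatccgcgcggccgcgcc
Col24a1: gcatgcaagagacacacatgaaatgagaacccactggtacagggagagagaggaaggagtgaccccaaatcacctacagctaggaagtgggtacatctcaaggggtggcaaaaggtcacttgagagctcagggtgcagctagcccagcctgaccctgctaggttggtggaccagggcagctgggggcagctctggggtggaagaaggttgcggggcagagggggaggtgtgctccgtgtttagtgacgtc
Col27a1: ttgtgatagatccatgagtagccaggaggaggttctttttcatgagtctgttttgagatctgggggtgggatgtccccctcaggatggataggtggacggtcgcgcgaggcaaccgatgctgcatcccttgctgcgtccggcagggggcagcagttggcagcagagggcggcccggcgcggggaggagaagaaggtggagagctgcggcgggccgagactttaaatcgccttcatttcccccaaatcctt
Col3a1: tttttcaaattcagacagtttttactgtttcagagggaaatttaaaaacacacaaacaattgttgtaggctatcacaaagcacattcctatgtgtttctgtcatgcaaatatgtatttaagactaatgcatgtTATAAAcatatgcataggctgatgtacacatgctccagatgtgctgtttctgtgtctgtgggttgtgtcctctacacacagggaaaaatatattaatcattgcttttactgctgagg
Col8a2: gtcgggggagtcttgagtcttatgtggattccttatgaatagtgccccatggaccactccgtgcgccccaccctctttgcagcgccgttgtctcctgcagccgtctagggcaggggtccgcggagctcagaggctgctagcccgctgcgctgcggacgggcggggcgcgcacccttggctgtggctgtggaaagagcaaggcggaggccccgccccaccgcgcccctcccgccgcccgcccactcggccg

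TATAAA was present in 3 of these 6 windows, at 143 bases before the start in Col11a2, at 237 bases in Col13a1 and at 117 bases in Col3a1, so it occurred among genes of both directions. It was present in 5 of the 38 collagen promoters and in 12.4% of the 32851 promoters of the same length in the annotation. TGTGGT was present in 3 of the 38 and in 14% of all, and CCAAT in 13 of the 38 and in 33.8% of all. The Col3a1 window was poor in G and C (35.2%) and the Col8a2 and Col13a1 windows were rich in them (70% and 68.8%), against a median of 52.4% over all promoters.

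The first comparison asked how the growing bone edge differed from the mesenchyme beside it. Averaged over the 8 sets and compared within embryos, 12 of the 41 collagen genes were higher in OFs and 19 were lower, and 10 were not called. Among all 19768 genes, 27.4% were called higher and 27.5% lower. The median log2 difference was -0.40 over the collagen genes and -0.05 over all genes. Fibrillar collagens had 7 genes higher and 4 lower, whereas in the FACITs 1 was higher and 5 were lower, in the beaded-filament and hexagonal-network chains together 1 was higher and 4 were lower, and in the basement membrane chains 1 was higher and 3 were lower. Differences are log2 of OF over SM with standard errors (SE), and p-values are from the quasi-likelihood test of edgeR, adjusted by Benjamini and Hochberg's method over all genes tested. With median-ratio scaling or unscaled totals the median of all genes moved to -0.11 and -0.16, and the counts of collagen genes stayed within 10 to 12 higher and 19 to 21 lower in each alternative except the one that left out the coronal sets, which gave 9 higher and 21 lower.

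**Figure D1:**
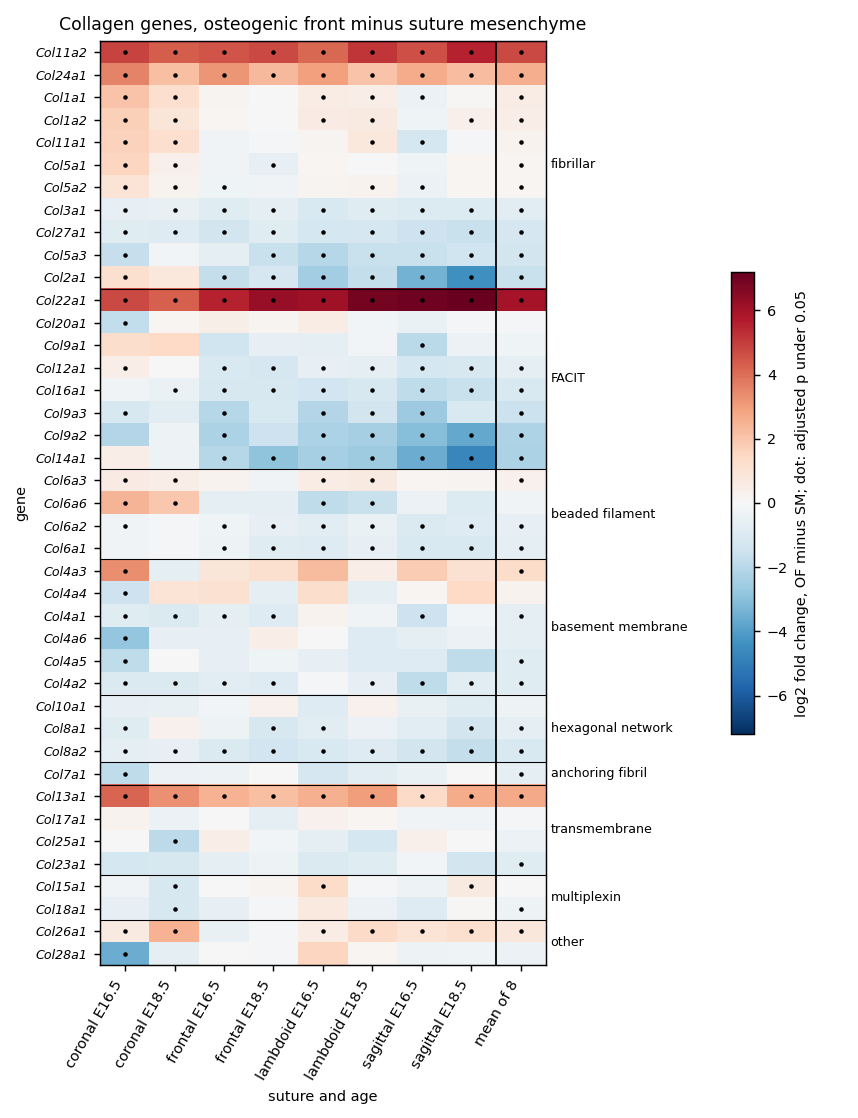
Log2 difference between OFs and SM for the 41 tested collagen genes, grouped by collagen type, in each of the 8 sets of suture and age and as their mean; red is higher in OFs, blue is lower, and a dot marks an adjusted p under 0.05. Col22a1, Col11a2, Col13a1 and Col24a1 are red with a dot in each set, while the rows of Col1a1, Col11a1, Col12a1 and Col2a1 change colour between the coronal and the sagittal suture at E16.5.

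By level per length, the fibrillar chains dominated the collagen message. Col1a1, the major chain of bone collagen, averaged 3381 CPM per kb of exon and took 49.0% of the summed CPM per kb of the 44 genes, and Col1a2, its partner chain, averaged 1437 CPM per kb and took 21.3%. Next came Col12a1, a FACIT of tendon and periosteum, at 389 CPM per kb and Col3a1, a fibrillar chain of elastic soft tissue, at 281 CPM per kb. The 11 fibrillar genes together took 83.0% of that sum, the FACITs 7.08%, the beaded-filament chains 6.74%, the hexagonal-network chains 1.65% and the basement membrane chains 1.17%. The length counts every annotated exon base of a gene, which need not be the length of its main transcript. It was 6563 bases for Col1a1 and 12426 for Col1a2, which averaged 22187 and 17857 CPM before division by length.

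Among the fibrillar genes, Col11a2, a chain of type XI collagen that helps set fibril diameter, had the largest difference. In the 40 SM libraries its level was 2.15 to 22.3 CPM with a median of 7.93, and in the OFs of the 40 embryos, averaged where an embryo had more than 1 OF, it was 68.9 to 698 CPM with a median of 194. No SM library reached the lowest OF value, and the OFs were higher in 40 of 40 embryos. The mean log2 difference was 4.75 (SE 0.14, adjusted p = 5.69e-38), or 27.0-fold. Col24a1, a fibrillar collagen known from bone, stood at 42.4 to 237 CPM in SM (median 93.6) and at 312 to 1092 CPM in OFs (median 656). It too was higher in 40 of 40 embryos, at 6.23-fold (log2 2.64, SE 0.07, adjusted p = 1.44e-39). The ranges did not overlap with OFs averaged by embryo, but single coronal frontal OF libraries at E18.5 went down to 187 CPM, below the highest SM library.

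The type I chains differed less. Col1a1 was at 5830 to 36848 CPM in SM (median 16256) and at 12672 to 41207 CPM in OFs (median 23208). The ranges overlapped over most of their length, and OFs were higher in 29 of 40 embryos. The mean difference was 0.51 (SE 0.05, adjusted p = 5.09e-13) for Col1a1 and 0.51 (SE 0.04, adjusted p = 2.65e-16) for Col1a2. Without the coronal sets, an alternative chosen after seeing the data, Col1a1 fell to 0.14 with an adjusted p of 0.0532. The minor fibrillar chains Col5a1, Col5a2 and Col11a1, which help start and size fibrils, were higher by small amounts, at 0.14, 0.12 and 0.25. The calls of Col5a1 and Col5a2 were lost with median-ratio scaling and with unscaled totals, and without the coronal sets these 3 genes stood at -0.14, -0.06 and -0.14, on the other side of 0.

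Col3a1 and Col27a1 were lower in OFs in 40 of 40 embryos each. Col3a1 ran from 1738 to 7487 CPM in SM (median 3284) and from 854 to 4691 CPM in OFs (median 1945), a difference of -0.83 (SE 0.04, adjusted p = 2.15e-27). In 5 of the 8 sets its SM and OF libraries did not overlap. Col27a1, a fibrillar chain of cartilage, ran from 90.2 to 375 CPM in SM and from 49.0 to 205 CPM in OFs, and its difference was -1.19 (SE 0.05, adjusted p = 1.45e-30). Col2a1, the major fibrillar chain of cartilage, and Col5a3 were lower as well, at -1.63 (SE 0.13, adjusted p = 2.78e-17) and -1.35 (SE 0.18, adjusted p = 1.38e-09), at SM medians of 44.7 and 15.7 CPM and OF medians of 11.7 and 7.46 CPM.

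**Figure D2:**
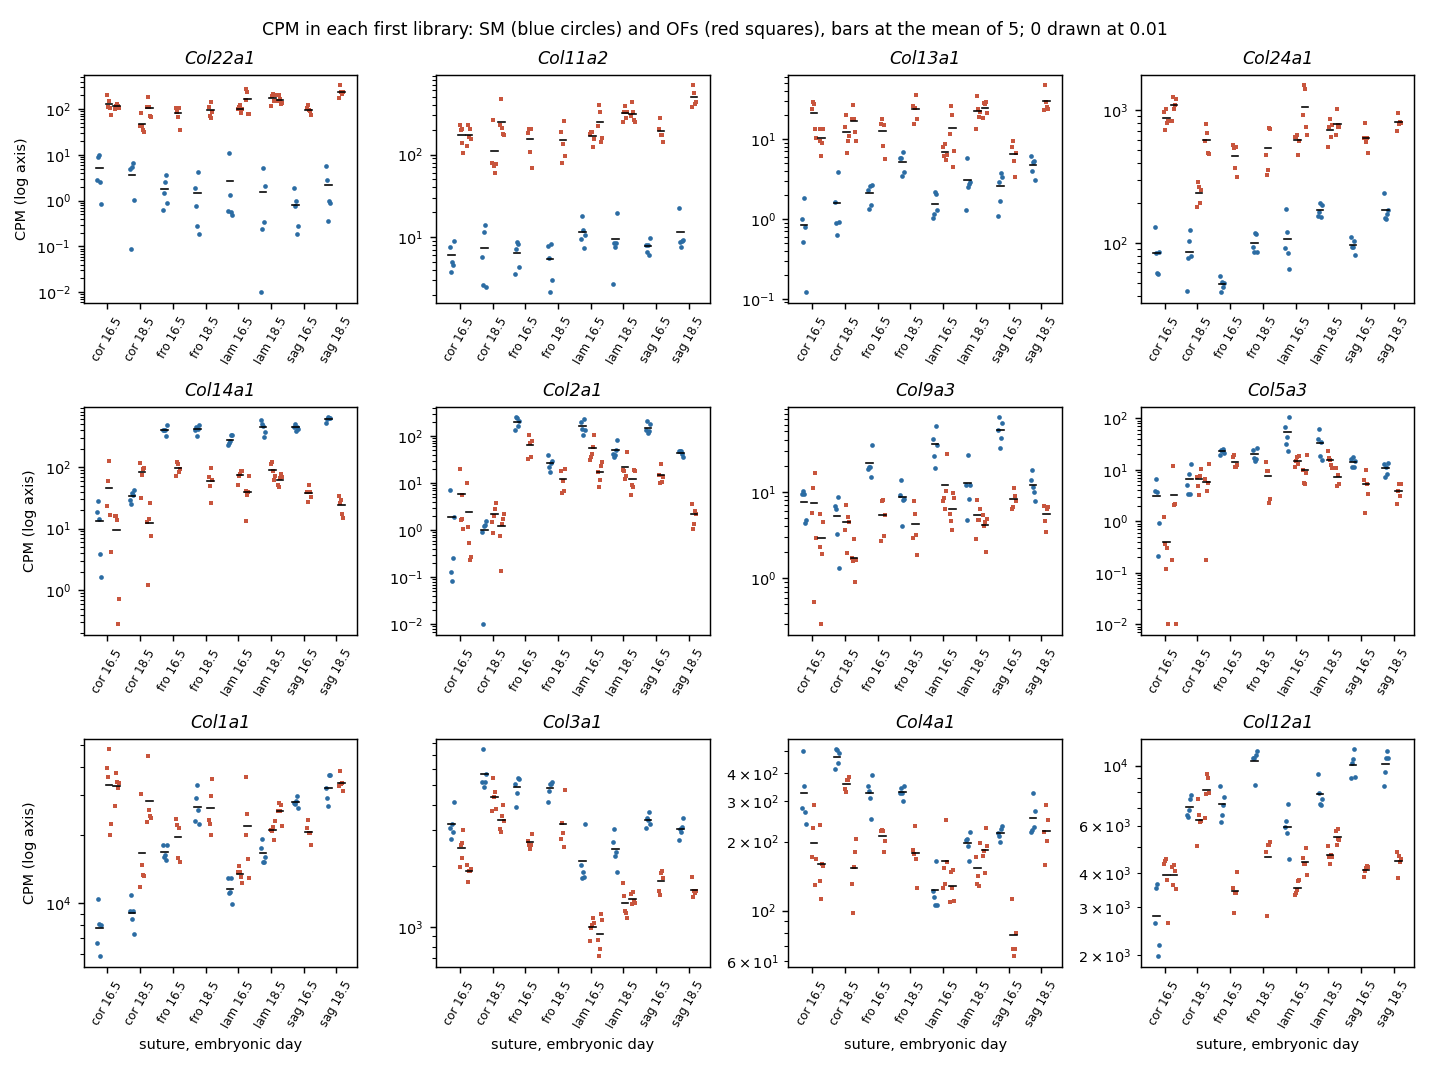
CPM of 12 collagen genes in each of the 100 libraries on a log axis, by suture and age, with SM as blue circles and OFs as red squares; bars are means of 5 libraries, and a library at 0 is drawn at 0.01. Within each suture and age the red squares lie above the blue circles for Col22a1, Col11a2 and Col24a1, and Col14a1 in coronal SM lies far below its level in the SM of the other sutures.

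The FACIT genes held both the largest rise and the largest fall. Col22a1, a FACIT known from tissue junctions, was at 0 to 10.7 CPM in SM with a median of 1.02 and at 35.7 to 339 CPM in OFs with a median of 113. The lowest OF value was above the highest SM value, and OFs were higher in 40 of 40 embryos. The difference was 6.00 on the log2 scale (SE 0.21, adjusted p = 1.73e-33), or 63.8-fold. Col14a1, a FACIT of dense connective tissue, was at 1.63 to 651 CPM in SM (median 391) and at 2.44 to 122 CPM in OFs (median 51.5). It was lower in 31 of 40 embryos (-2.25, SE 0.11, adjusted p = 4.98e-26), and the low SM values were those of the coronal suture.

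Of the other FACITs, Col9a2 and Col9a3, chains of the cartilage collagen IX, were lower at -2.21 (SE 0.27) and -1.53 (SE 0.16), Col16a1 at -1.12 (SE 0.06) and Col12a1 at -0.68 (SE 0.04), with adjusted p-values of 2.42e-10, 2.41e-12, 5.59e-25 and 3.57e-25. Col9a2 was low throughout, with medians of 5.74 CPM in SM and 1.07 CPM in OFs. Col9a1, the remaining chain of collagen IX, was not called (-0.31, SE 0.21, adjusted p = 0.212), nor was Col20a1 (-0.16, SE 0.22, adjusted p = 0.577).

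Markers of other cell types are given beside these differences, and their part in them was not tested. Of the 7 collagen genes that were highest in the chondrocyte-like cells of the single-cell libraries at both ages, Col2a1, Col9a2, Col9a3 and Col27a1 were lower in OFs, Col9a1 was not called, and Col11a1 and Col11a2 were higher. Those libraries are of the coronal suture alone, and no cells of the other sutures were sampled. The paper presumes that its chondrocytes came from the parietal cartilage at the base of that suture. Of the 6 tested genes of an 8-gene chondrocyte list 3 were lower and 1 was higher, and the summed level of that list was 83.7 to 412 CPM in SM and 56.6 to 198.1 CPM in OFs. The defining cartilage genes Matn1 and Snorc had a median of 0 CPM in both. Of 8 pericyte genes, 7 were lower in OFs (sums of 178 to 658 CPM in SM and 60.1 to 1050 CPM in OFs), of 8 endothelial genes 1 was lower, of 10 macrophage genes 9 were lower, and of 6 ectocranial mesenchyme genes 6 were lower. Of 12 osteoblast genes 11 were higher, with a median log2 difference of 4.36, and none was lower.

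Chains of the network-forming collagens were mostly lower in OFs. Col4a1 and Col4a2, the chains found in nearly all basement membranes, stood at -0.64 (SE 0.05, adjusted p = 2.31e-16) and -0.88 (SE 0.07, adjusted p = 2.01e-18). Col4a1 was at 105 to 508 CPM in SM and at 63.0 to 294 CPM in OFs, and the OFs were lower in 34 of 40 embryos. Col4a3, a chain best known from kidney, was called higher at 1.29 (SE 0.33, adjusted p = 0.000753), but it averaged 1.16 CPM and no embryo's OFs averaged over 3.77 CPM. Col4a5 was lower at -0.88 at similarly low levels, and Col4a4 (0.26, adjusted p = 0.344) and Col4a6 (-0.68, adjusted p = 0.103) were not called.

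Among the collagen VI chains, which assemble as a trimer of 3 different chains, Col6a1 and Col6a2 were lower (-0.67, SE 0.04, and -0.56, SE 0.03) while Col6a3 was higher (0.33, SE 0.04, adjusted p = 1.86e-10). Col6a3 ran from 914 to 2852 CPM in SM and from 946 to 4215 CPM in OFs, and was higher in 37 of 40 embryos, whereas Col6a1 was lower in 35 of 40. Col6a6, a chain that can stand in for Col6a3, was not called in the mean (-0.24, adjusted p = 0.449). The ratio of Col6a3 to Col6a1 per kb had a median of 0.709 in SM (0.459 to 1.11) and of 1.45 in OFs (0.952 to 2.501), while Col6a1 to Col6a2 stood at 1.27 in SM and 1.24 in OFs. Of the hexagonal-network chains, Col8a1 and Col8a2, known from blood vessels and the cornea, were lower at -0.68 (SE 0.12) and -1.09 (SE 0.07). Col8a1 ran from 85.7 to 2519 CPM in SM and from 72.0 to 3040 CPM in OFs, with OFs lower in 32 of 40 embryos, and Col8a2 was lower in 38 of 40. Col10a1, the collagen of hypertrophic cartilage, was not called at a mean level of 3.99 CPM.

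Col13a1, a transmembrane collagen of adhesion sites, was the fourth gene higher in OFs in each of the 8 sets. It was at 0.121 to 6.80 CPM in SM (median 2.42) and at 3.35 to 47.7 CPM in OFs (median 15.9). The OFs were higher in 39 of 40 embryos and without overlap in 7 of the 8 sets, the sagittal suture at E16.5 being the other. The difference was 2.73 (SE 0.15, adjusted p = 1.15e-24), or 6.61-fold. Of the other transmembrane chains Col23a1 was lower (-0.87, SE 0.19, adjusted p = 6.42e-05), and Col17a1 (-0.11, adjusted p = 0.738) and Col25a1 (-0.40, adjusted p = 0.185) were not called. The multiplexins Col15a1 and Col18a1, proteoglycans of vascular basement membranes, stood at 0.04 (not called) and -0.37 (SE 0.11, adjusted p = 0.00401), Col7a1 at -0.63 (SE 0.24, adjusted p = 0.0218), Col26a1 at 0.81 (SE 0.07, adjusted p = 4.91e-15) and Col28a1 at -0.41 (not called). Without the coronal sets Col18a1 and Col7a1 were no longer called, at -0.21 and -0.47.

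Chains of one collagen type did not all keep their ratio. The ratio of Col1a1 to Col1a2 per kb kept a median of 2.43 in SM and 2.30 in OFs, and Col4a1 to Col4a2 one of 0.742 and 0.887. The size of such a ratio depends on the annotated exon lengths, which are the same for SM and OFs. Col11a1 to Col11a2 had a median of 71.0 in SM (16.6 to 451) and of 2.59 in OFs (1.17 to 12.95), so the lowest SM ratio lay above the highest OF ratio. Col3a1 to Col1a1 had a median of 0.109 in SM (0.0554 to 0.515) and of 0.0495 in OFs (0.0133 to 0.232), with overlap. Of the genes that lie next to each other in the genome, Col4a1 and Col4a2 start head to head on chr8 (mm10, 11198423 to 11312826 on the minus strand and 11312805 to 11449287 on the plus strand) and share 22 bases, so that reads over those bases could not be assigned by strand, and both were lower. Col3a1 and Col5a2 lie 24614 bases apart on chromosome 1, and their differences were -0.83 and 0.12.

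The differences were then taken in each suture and age. In the coronal suture at E16.5, 15 collagen genes were higher in OFs (15.9% of all genes) and 15 were lower (19.1%), and at E18.5 12 were higher (6.8%) and 9 lower (5.33%). In the frontal suture 4 were higher (5.66%) and 14 lower (3.14%) at E16.5, and 4 were higher (6.34%) and 14 lower (4.95%) at E18.5. In the lambdoid suture 9 were higher (13.4%) and 14 lower (10.2%) at E16.5, and 10 were higher (16.6%) and 14 lower (12%) at E18.5. In the sagittal suture 5 were higher (11.5%) and 18 lower (6.86%) at E16.5, and 7 were higher (14.9%) and 13 lower (11.2%) at E18.5. The medians over the collagen genes were between -0.11 (coronal, E18.5) and -0.55 (sagittal, E16.5) and those over all genes between -0.10 and 0. At the coronal suture at E16.5 the count of lower genes fell to 9 in the fit with no embryo block and to 7 and 8 without replicates 2 and 3, and at the frontal suture at E16.5 it fell to 8 without replicate 5. With each set fitted by itself, these counts were 4 at the coronal and 23 at the frontal suture. With unscaled totals the coronal suture at E18.5 had 8 higher and 9 lower.

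The 4 genes higher in all 8 sets were set against 448 of the 19768 genes (2.27%), and the 3 lower in all 8 against 202 (1.02%). Conversely, 8 collagen genes were called higher in at least 1 set and lower in at least 1 other, namely Col1a1, Col11a1, Col5a1, Col5a2, Col15a1, Col6a6, Col12a1 and Col2a1, against 549 of all genes (2.78%). Without the embryo block the lower call of Col1a1 and the higher calls of Col6a6 were lost, as given below. The higher call of Col2a1 was in the coronal suture, where no SM library held over 6.98 CPM. Col10a1, Col17a1 and Col23a1 were called in no set, as were 8765 of all genes (44.3%). In the coronal suture at E16.5 Col22a1 stood at 2.84, 9.19, 9.84, 2.57 and 0.846 CPM in SM, at 209, 113, 149, 108 and 73.7 CPM in frontal OF and at 103, 116, 128, 118 and 107 CPM in parietal OF. Both OFs were far above SM in each embryo (log2 4.78, SE 0.53, adjusted p = 9.1e-11). In the sagittal suture at E18.5 its SM values were 5.70, 2.84, 0.367, 0.985 and 0.895 CPM and its OF values 175, 339, 232, 219 and 235 CPM, a difference of 7.12.

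The genes with the lowest differences varied between sutures. At the frontal, lambdoid and sagittal sutures, Col14a1 was among the lowest at both ages, at -2.06 and -2.89 (frontal), -2.40 and -2.56 (lambdoid) and -3.56 and -4.68 (sagittal). Col2a1 stood at -1.73 and -1.21, -2.50 and -1.69, and -3.38 and -4.42 in the same order, and Col9a2 was lower in each of these sets except the frontal suture at E18.5, reaching -3.69 (SE 0.81) in the sagittal suture at E18.5. Col9a3 was lower at E16.5 in all 3 (-2.05, -2.09 and -2.64) and at E18.5 in the lambdoid suture (-1.34). Col5a3 (-2.04 and -1.58) and Col6a6 (-1.85 and -1.62) were among the lowest in the lambdoid suture at both ages, Col9a1 (-1.91) and Col4a2 (-1.85) in the sagittal suture at E16.5, and Col8a2 (-1.71), Col27a1 (-1.60) and Col16a1 (-1.58) there at E18.5. In the frontal suture Col27a1 (-1.31) and Col16a1 (-1.17) followed at E16.5, and Col5a3 (-1.62), Col8a2 (-1.37), Col12a1 (-1.21) and Col8a1 (-1.16) at E18.5. In these OF libraries Col8a1 was at 814, 650, 761, 443 and 3040 CPM, the last above its own SM (1922 CPM) and from the library with 52.3% mitochondrial counts, and its difference was -1.58 (adjusted p = 0.00689) without that replicate. Leaving out any other replicate ended the call (adjusted p = 0.0732 to 0.247).

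In the coronal suture the lowest at E18.5 were Col25a1 (-1.88, SE 0.61, not called with the second libraries) and then Col15a1 (-1.14, SE 0.14), Col18a1 (-1.14, SE 0.28), Col4a1 (-1.03, SE 0.14) and Col4a2 (-1.01, SE 0.17), before Col27a1 (-0.93, SE 0.12). Coronal SM held 415, 508, 503, 441 and 490 CPM of Col4a1 at E18.5. Frontal OF (329 to 382 CPM) and parietal OF (97.5 to 205 CPM) were both below the lowest of these. Besides the 4 genes higher in each set, the highest were Col26a1 in the coronal suture at E18.5 (2.53, SE 0.21), the lambdoid at E18.5 (1.35) and the sagittal at E16.5 (0.98) and E18.5 (1.16), Col15a1 in the lambdoid suture at E16.5 (1.34) and the sagittal at E18.5 (0.62), Col1a2 in the lambdoid at E16.5 (0.57) and Col11a1 there at E18.5 (0.73). Col15a1 was thus lower in coronal OFs at E18.5 and higher in OFs of the other 2 sets.

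Several low-level genes were called in the coronal suture at E16.5 alone of the 8 sets. Col4a3 was higher there (3.35, SE 0.96), and Col4a4, Col4a5, Col4a6, Col7a1, Col20a1 and Col28a1 were lower, with SM medians of 0.498 to 6.35 CPM. With the second coronal libraries Col4a5 and Col20a1 stood at 0.15 and 0.46, on the other side of 0, and Col4a3, Col4a6, Col7a1 and Col28a1 were not called. In the fit with no embryo block, Col4a5 (-0.08, adjusted p = 0.951), Col7a1 (-1.31, adjusted p = 0.0536) and Col28a1 (-1.05, adjusted p = 0.32) lost their calls as well. Col6a6 was called higher in OFs in both coronal sets (2.44 and 1.96) with 0 to 7.08 CPM in coronal SM, and without the embryo block neither call held (adjusted p = 0.597 and 0.128). Without that block calls were also lost at the frontal suture for Col2a1 (-1.63, adjusted p = 0.0525, at E16.5 and -1.13, adjusted p = 0.243, at E18.5), Col6a2 and Col5a2 at E16.5 and Col5a3 and Col8a1 at E18.5 (adjusted p = 0.196, 0.128, 0.128 and 0.216), and for Col1a1 at the sagittal suture at E16.5 (-0.42, adjusted p = 0.107).

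The coronal suture was next set against the other 3, since it is the suture the study turns on. For 19 collagen genes the difference between OFs and SM was more positive in the coronal suture than the mean of the others, against 7.98% of all genes, and for 4 it was more negative, against 12%. The median of this difference of differences was 0.39 over the 41 genes and -0.09 over all genes. A test for any difference among the 4 sutures called 23 collagen genes, against 19.9% of all genes. With the second coronal libraries the counts were 19 and 4, without Col28a1 and Col6a3 among them, and at each age alone 17 and 3 (E16.5) and 14 and 3 (E18.5). Without replicate 2 there were 18 and 2.

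**Figure D3:**
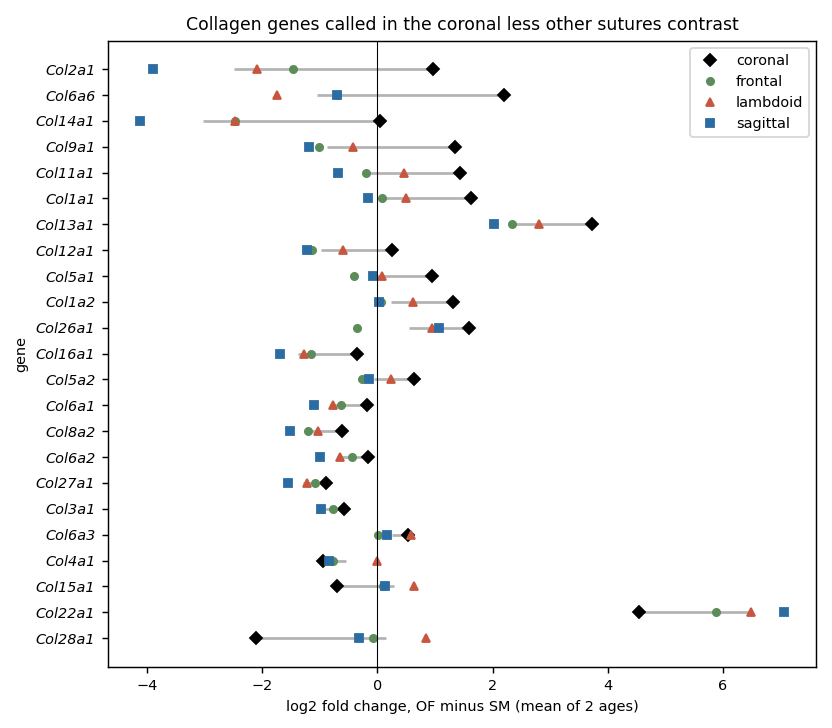
Log2 difference between OFs and SM in each suture (mean of both ages) for the 23 collagen genes whose coronal difference was called apart from the mean of the other 3 sutures; coronal is drawn as diamonds, frontal as circles, lambdoid as triangles and sagittal as squares, a grey bar joins coronal to the mean of the other 3, and the vertical line is no difference. The coronal diamonds of Col1a1, Col11a1, Col5a1 and Col12a1 lie right of the other 3 sutures, and that of Col22a1 lies left of the other 3.

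Among bone-type fibrillar chains, Col1a1 differed by 1.63 between coronal OFs and SM but by 0.07, 0.50 and -0.16 at the frontal, lambdoid and sagittal sutures (difference 1.49, SE 0.12, adjusted p = 2.04e-15). At the coronal suture at E16.5 its SM libraries held 6675, 10432, 8096, 5830 and 8038 CPM, its frontal OF 39603, 36222, 48059, 20111 and 22428 CPM and its parietal OF 26913, 37873, 34354, 32382 and 34045 CPM. At the sagittal suture at E16.5 SM held 27745, 27422, 28454, 29967 and 26360 CPM and parietal OF 21564, 23296, 20371, 20467 and 18175 CPM. The 2 sutures were opposite in order, without overlap between SM and OFs in either, and the SM values of the 2 sutures did not overlap whereas those of the OFs did. The adjusted p of the sagittal difference (-0.42) was under 0.05 in the within-embryo fit, but not with DESeq2 (adjusted p = 0.228) or without the embryo block (adjusted p = 0.107). Col11a1 followed the same order of sutures, at 1.43 in the coronal suture against -0.19, 0.47 and -0.69 (difference 1.56, SE 0.11, adjusted p = 1.03e-16).

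Col12a1 was lower in OFs at the frontal, lambdoid and sagittal sutures (-1.14, -0.60 and -1.22) and at 0.26 in the coronal suture (difference 1.25, SE 0.08, adjusted p = 1.07e-18). Its coronal SM held 2622, 3540, 3652, 1974 and 2171 CPM at E16.5, and the sagittal SM 8983, 10247, 10569, 11497 and 9043 CPM. Col14a1 showed a coronal difference of 0.05 and differences of -2.47, -2.48 and -4.12 elsewhere (difference 3.08, SE 0.27, adjusted p = 1.39e-13). Its levels set the pattern out: in coronal SM it was at 18.7, 28.1, 14.2, 3.88 and 1.63 CPM at E16.5 and at 29.4, 25.5, 37.7, 35.7 and 43.1 CPM at E18.5, and in the SM of the other sutures at 227 to 651 CPM. Markers of neighbouring tissue are given beside it and Col6a6. The summed hypodermis list was at 29.3 to 61.6 CPM in coronal SM and 49.8 to 522 CPM in frontal and lambdoid SM. In sagittal SM it was at 52.5 to 69.5 CPM at E16.5, and at E18.5 coronal SM (40.5 to 51.6 CPM) and sagittal SM (44.8 to 52.65 CPM) overlapped, whereas Col14a1 was at 524 to 651 CPM in sagittal SM at that age. Of its genes, Pi16 was at a median of 0.0972 and 8.77 CPM in coronal and other SM, and Clec3b was at 0 in all 10 coronal libraries and at a median of 2.601 CPM elsewhere. The rest differed less: medians in coronal and other SM were 3.33 and 7.18 CPM for Dpp4, 3.69 and 6.70 CPM for Ly6a and 27.75 and 52.66 CPM for Cd248. Ly6c1 was at 3.12 and 3.1 CPM. The summed ectocranial mesenchyme list was at 340.2 to 592 CPM in coronal SM and 514 to 1551 CPM in the other SM. Their part in the differences was not tested.

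Col2a1 (difference 3.45, SE 0.33, adjusted p = 1.55e-12), Col6a6 (3.25, SE 0.60, adjusted p = 3.49e-05) and Col9a1 (2.22, SE 0.52, adjusted p = 0.00118) had the other large positive differences. Col2a1 was low in coronal SM, at 6.98, 0.128, 0.083, 0.262 and 1.87 CPM at E16.5 and at 0 to 1.59 CPM at E18.5, against 16.9 to 253 CPM in the SM of the other sutures. Col6a6 and Col9a1 were low over all libraries, averaging 10.8 and 5.24 CPM. The summed chondrocyte list was at 83.7 to 126 CPM in coronal SM and 172 to 326 CPM in the other SM at E16.5. At E18.5 its range was 243 to 331 CPM in coronal SM and 247 to 361 CPM in frontal SM, which overlapped, and 276 to 412 CPM in lambdoid and sagittal SM. Of its genes, Matn4 was at a median of 0.437 CPM in coronal SM and 42.6 CPM elsewhere, Cnmd at 0.0868 and 10.4 CPM and Sox9 at 3.75 and 16.4 CPM. Acan, the core proteoglycan of cartilage, was at a median of 144 CPM in coronal SM and 166 CPM elsewhere, and Hapln1, which links it to hyaluronan, was the other way, at 47.3 and 31.2 CPM. The part of these cells in the differences was not tested. At E18.5 alone Col9a1 was not called (1.83, adjusted p = 0.0914).

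The negative differences were those of Col28a1, Col22a1, Col15a1 and Col4a1. Col22a1 was higher in OFs in each suture but by 4.54 in the coronal suture and by 5.89, 6.49 and 7.06 elsewhere (difference -1.94, SE 0.40, adjusted p = 0.000177), -1.40 with the second libraries (adjusted p = 0.0107) and -1.44 at E16.5 alone (adjusted p = 0.0553). Col15a1 was at -0.71 in the coronal suture and at 0.10, 0.64 and 0.12 elsewhere (difference -0.99, SE 0.12, adjusted p = 3.03e-09), with 60.9 to 167 CPM in coronal SM and 6.45 to 46.3 CPM in the other SM. Col4a1 was at -0.95 in the coronal suture and at -0.78, 0.001 and -0.84 at the frontal, lambdoid and sagittal sutures. Its difference was -0.41 (SE 0.12, adjusted p = 0.00733), with the lambdoid suture, rather than the coronal, lying apart. Of 8 endothelial genes, 6 also had a more negative difference in the coronal suture, and their sum was 182 to 499 CPM in coronal SM, 41.9 to 598 CPM in the other SM, 53.7 to 404 CPM in coronal OFs and 38 to 347 CPM in the other OFs. The part of vessels in the Col15a1 and Col4a1 differences was not tested. Col28a1 averaged 0.896 CPM over all libraries, and its call (-2.26, SE 0.81, adjusted p = 0.0395) was lost with no embryo block (-0.999, adjusted p = 0.338) and with the second libraries (-0.54, adjusted p = 0.645).

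The remaining named differences were small and positive, Col3a1 (0.34, SE 0.09, adjusted p = 0.00299) and Col6a3 (0.27, SE 0.09, adjusted p = 0.0189). Col6a3 was at 0.53 in the coronal suture and at 0.01, 0.59 and 0.17 at the frontal, lambdoid and sagittal sutures. Its lambdoid value was thus above the coronal one. With the second coronal libraries the differences were 1.34 for Col1a1, 1.58 for Col11a1, 2.76 for Col14a1, 3.49 for Col2a1, 3.41 for Col6a6, 2.26 for Col9a1, -1.10 for Col15a1, -0.49 for Col4a1 and 0.34 for Col3a1, each called (adjusted p at most 0.00379). For Col12a1 the coronal differences with them were 0.305 at E16.5 and -0.01 at E18.5. The Col6a3 call was lost with unscaled totals, with the second libraries and at each age alone, and the Col3a1 call at E18.5 alone (0.26, adjusted p = 0.239). Col11a2 and Col24a1 were not called apart: the coronal difference less the others was -0.19 (SE 0.26, adjusted p = 0.684) and 0.30 (SE 0.14, adjusted p = 0.126). Outside the collagen genes, 6 of 12 osteoblast genes and 7 of 7 proliferation genes had a more negative coronal difference, and 4 of 5 mast cell genes a more positive one, with mast cell sums of 1.55 to 21.5 CPM in coronal SM and 53.9 to 450 CPM in the other SM.

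The share of all gene counts that fell on the 44 genes was 1.69% to 8.84% over the 100 libraries. In coronal SM at E16.5 it was 1.69% to 3.22%, below the SM of each other group, where it was at least 4.16%. The mitochondrial share of counts was 25.7% to 51.0% in these libraries and 12.8% to 33.5% in the other SM groups. The second libraries gave a collagen share of 3.06% to 3.20% with a mitochondrial share of 13.5% to 14.1%. The part of the mitochondrial counts in the low share was not tested. By E18.5 coronal SM had 4.20% to 4.98%. The sagittal SM was highest among SM groups at E16.5, at 7.34% to 8.36%, above its OF at 4.74% to 5.67%.

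**Figure D4:**
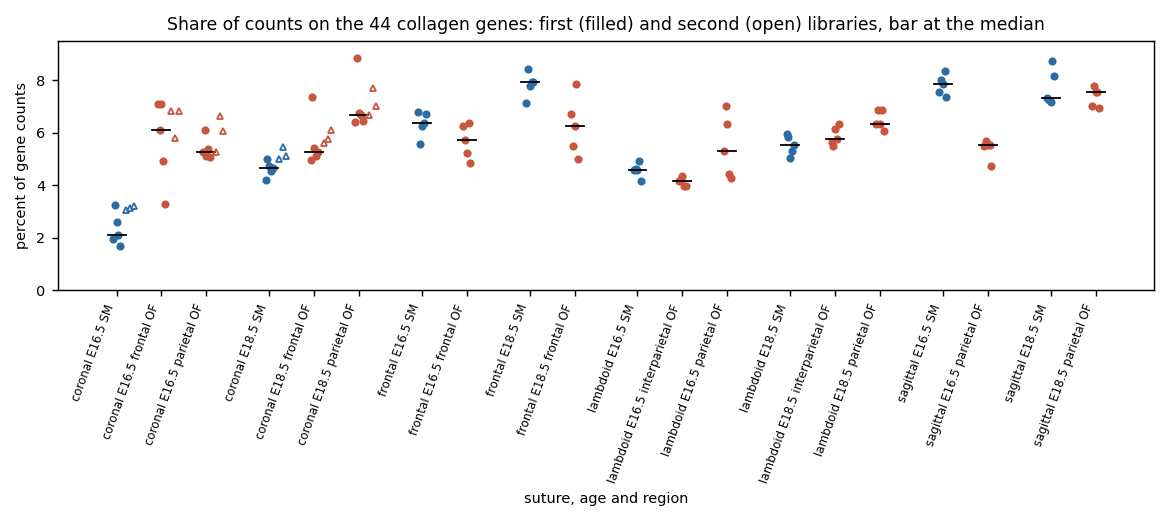
Percent of a library's gene counts that fell on the 44 collagen genes, by group; filled circles are the 100 libraries, open triangles the second coronal libraries, and a line marks the median of each group of 5. Coronal SM at E16.5 lies between 1.69% and 3.22%, below each library of the other 19 groups.

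The age comparison was made between embryos, in SM and in OFs apart. Most embryos have an identifier that matches another of their group up to the last number, as litter mates would. No identifier without that number occurred at both ages. The age tests treat all embryos as independent. In SM, 17 collagen genes were higher at E18.5 than at E16.5 (6.73% of all genes) and 6 were lower (7.22%), with a median of 0.23 over the collagen genes and 0 over all genes. In OFs, 16 were higher (6.67%) and 6 lower (6.77%), with a median of 0.23. Col2a1 was lower in SM (-1.81, SE 0.24, adjusted p = 4.88e-07) and in OFs (-1.88, SE 0.27, adjusted p = 2.29e-06), Col9a3 was at -1.36 and -0.62, and Col9a1 was lower in SM (-1.33, SE 0.31, adjusted p = 0.00236) and not called in OFs (-0.40, adjusted p = 0.137). In sagittal SM, Col2a1 stood at 132, 204, 113, 127 and 179 CPM at E16.5 and at 47.2, 48.2, 48.3, 42.3 and 36.4 CPM at E18.5.

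Col26a1, a small collagen of the extracellular matrix, was lower at E18.5 in SM (-1.44, SE 0.11, adjusted p = 3.39e-13) and in OFs (-0.63, SE 0.09, adjusted p = 3.97e-06). Coronal SM held 21.5 to 51.7 CPM of it at E16.5 and 3.13 to 8.91 CPM at E18.5. Col4a5 and Col23a1 were lower in both tissues, at -1.27 and -0.82 in SM and at -1.55 and -1.14 in OFs, and Col6a6 was lower in OFs (-0.92, adjusted p = 0.0339). With limma-voom Col23a1 and Col6a6 were not called in OFs (adjusted p = 0.1 and 0.101).

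The highest age difference was that of Col13a1, at 1.01 (SE 0.25, adjusted p = 0.00356) in SM and 1.08 (SE 0.15, adjusted p = 1.67e-06) in OFs, followed by Col27a1 at 0.69 (SE 0.06, adjusted p = 4.08e-11) and 0.78 (SE 0.08, adjusted p = 1.05e-09). In SM, Col24a1, Col14a1, Col15a1 and Col12a1 came next, at 0.66, 0.64, 0.57 and 0.57, and in OFs Col4a1, Col4a2, Col11a2, Col16a1 and Col6a1, at 0.51, 0.49, 0.49, 0.45 and 0.45. Without the coronal sets 10 genes, rather than 17, were higher in SM, and Col14a1 was not among them (0.40, adjusted p = 0.165). Of 10 macrophage genes 8 were higher with age in SM and 5 in OFs, and of 8 endothelial genes 3 in each. Of 8 pericyte genes 4 were higher and 1 lower in SM, and 6 were higher in OFs. Of 8 chondrocyte genes 6 were tested in SM, with 1 higher and 1 lower, and 5 in OFs, with 1 higher and 0 lower. Of 7 proliferation genes 7 were lower in SM and 4 in OFs. The part of these cells in the age differences was not tested.

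Whether the OF difference itself changed with age was tested as a difference of differences, and 1 collagen gene was called in each direction, against 0.47% of all genes higher and 0.4% lower. Col24a1 had a smaller difference at E18.5 (-0.90, SE 0.13, adjusted p = 9.42e-06). In the coronal suture it was at 132, 84.1, 58.7, 57.7 and 85.9 CPM in SM at E16.5 and at 43.1, 76.4, 102, 126 and 79.9 CPM at E18.5, while frontal OF went from 709 to 1025 CPM down to 187 to 287 CPM. Coronal parietal OF was at 833 to 1266 CPM at E16.5 and at 469 to 783 CPM at E18.5. In the sagittal suture, by contrast, SM was at 81.3 to 110 CPM at E16.5 and 151 to 237 CPM at E18.5, and OF at 479 to 796 and 693 to 950 CPM. In the frontal suture SM was at 42.4 to 55.9 and 84.6 to 119 CPM, without overlap, and OF at 312 to 546.5 and 324 to 731 CPM, with overlap. In the lambdoid suture both overlapped, SM at 63.0 to 179 and 157.5 to 201 CPM and OFs at 463 to 1554 and 530 to 1028 CPM. Col26a1 had a larger difference at E18.5 (0.82, SE 0.14, adjusted p = 0.000484), but at 0.46 (adjusted p = 0.341) it was not called without the coronal sets.

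The frontal and parietal bones, which meet at the coronal suture, differ in embryonic origin, the frontal bone coming from neural crest and the parietal bone from mesoderm, and their OFs were compared within embryos. At E16.5, 7 collagen genes were higher in frontal OF (4.41% of all genes) and 4 in parietal OF (4.62%). At E18.5, 7 were higher in frontal OF (3.56%) and 10 in parietal OF (2.54%). Col14a1 was higher in frontal OF at both ages, at 23.3, 60.2, 124, 16.7 and 4.17 CPM against 16.3, 15.9, 13.99, 0.277 and 0.705 CPM in parietal OF at E16.5 (2.503, SE 0.38, adjusted p = 1.56e-05) and at 116, 31.3, 74.5, 92.5 and 97.8 CPM against 12.97, 1.197, 14.1, 26.1 and 7.49 CPM at E18.5 (2.93, SE 0.36, adjusted p = 5.63e-08). It was higher in frontal OF in 5 of 5 embryos at each age.

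Col8a1 was higher in parietal OF, at 323, 899, 742, 160 and 217 CPM against 168, 22.7, 87.9, 51.6 and 36.3 CPM in frontal OF at E16.5 (-2.71, SE 0.41, adjusted p = 1.26e-05) and by -1.69 at E18.5 (SE 0.39, adjusted p = 0.00269). The remaining genes higher in frontal OF at E16.5 were Col2a1 (1.72), Col27a1 (0.81), Col16a1 (0.77), Col8a2 (0.69), Col11a1 (0.58) and Col3a1 (0.37), and those lower in frontal OF were Col6a6 (-2.88), Col5a3 (-2.52) and Col20a1 (-2.30). With the second coronal libraries in place of the first for 3 of the 5 embryos a group, the fit gave 475 calls over all genes against 1786. Only Col14a1, Col11a1 and Col8a1 of the genes named here were then called at E16.5. With no embryo block Col6a6, Col8a2 and Col2a1 lost theirs (-1.51, 0.63 and 1.25, adjusted p = 0.222, 0.0779 and 0.159). The counts at E16.5 ran from 3 to 8 genes higher and from 2 to 5 lower when 1 replicate was left out, with 4 higher and 2 lower without replicate 2, 3 and 2 without replicate 3, and 7 and 2 without replicate 4.

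At E18.5 Col24a1 was at 187 to 287 CPM in frontal OF and 469 to 783 CPM in parietal OF without overlap (-1.33, SE 0.19, adjusted p = 1.58e-06), and Col11a2 (-1.27), Col1a1 (-0.80), Col26a1 (-0.72) and Col1a2 (-0.65) were lower too. Col4a1 was at 339, 329, 370, 370 and 382 CPM in frontal OF and 131, 97.5, 155, 180 and 205 CPM in parietal OF (1.25, SE 0.16, adjusted p = 1.97e-07), followed by Col4a2 at 1.18 and Col15a1 at 1.06, with Col18a1 at 1.90 and Col23a1 at 2.91. The summed level of 8 endothelial genes was 163 to 371 CPM in frontal OF and 53.7 to 88.1 CPM in parietal OF, where Cldn5 had a median of 0, and that of 8 pericyte genes was 467 to 1050 CPM and 274 to 442 CPM. Their part in the difference was not tested. Col1a1 was not called with DESeq2 (-0.74, adjusted p = 0.0727), Col11a2 not with the second libraries (-0.87, adjusted p = 0.195), and Col26a1 not with limma-voom or unscaled totals. The split of 7 higher and 10 lower became 10 and 8 with DESeq2 and 8 and 5 with unscaled totals, and the lower genes numbered 6 without replicate 1, 6 without replicate 3 and 5 without replicate 4.

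At the lambdoid suture, interparietal and parietal OFs differed at E16.5 for 2 collagen genes that were higher in interparietal OF (0.476% of all genes) and 5 that were lower (0.491%). Col11a1 (-1.08, SE 0.15, adjusted p = 1.06e-05), Col24a1 (-0.74), Col1a2 (-0.71, SE 0.13, adjusted p = 0.000642), Col5a2 (-0.64, SE 0.10, adjusted p = 2.68e-05) and Col1a1 (-0.63) were lower, and Col2a1 (1.64) and Col8a2 (0.90) were higher. Col1a1, Col8a2 and Col2a1 were not called with no embryo block (adjusted p = 0.0502, 0.0988 and 0.225), and the counts higher and lower were 2 and 3 without replicate 1, 0 and 2 without replicate 2, 1 and 3 without replicate 3, 0 and 3 without replicate 4, and 2 and 3 with unscaled totals, where Col24a1 and Col1a1 were not called (adjusted p = 0.146 and 0.138). At E18.5 no collagen gene was called by edgeR, DESeq2 or limma-voom, where 0.00506% of all genes were higher and 0.0101% lower, although 8 collagen genes had an unadjusted p under 0.05.

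The enzymes and receptors of the collagen pathway were read beside the chains. Of 31 genes for collagen modification, folding, export, trimming and cross-linking, 30 were tested, and 19 were higher in OFs and 8 lower in the mean of the 8 sets (median 0.36), where 27.4% of all genes were higher and 27.5% lower. Among the prolyl hydroxylases, P3h2 (2.58, SE 0.08) was higher. Of the P4ha chains, whose enzymes stabilise the triple helix, P4ha2 (1.82, SE 0.06) and P4ha1 (1.75, SE 0.05) were higher with their shared subunit P4hb (1.19, SE 0.05), while P4ha3 was lower (-1.16, SE 0.07). The adjusted p-values of all these hydroxylase genes were at most 3.59e-22. The collagen chaperones Serpinh1 and Fkbp10 were higher (1.04, SE 0.06, and 1.17, SE 0.08). Of the lysyl oxidases, which cross-link fibrils, Loxl4 was higher by 4.28 (SE 0.14, adjusted p = 1.08e-34), Loxl2 by 0.42 and Lox by 0.21, and Loxl1 and Loxl3 were lower (-0.82, SE 0.12, and -0.81, SE 0.10). The procollagen peptidases Bmp1, Adamts2 and Adamts3 were lower (-0.45, -0.55 and -0.66) and Adamts14 was higher (0.16), whereas the peptidase enhancers Pcolce2 and Pcolce were higher (3.67 and 0.52).

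Of 10 collagen receptor genes, 9 were tested, 2 were higher and 2 lower in OFs, against the same shares of all genes (27.4% and 27.5%). Itga10, an integrin chain first known from cartilage, was higher by 2.26 (SE 0.09, adjusted p = 6.56e-32) and its partner Itgb1 by 0.41, Itga1 was lower (-1.01, SE 0.09, adjusted p = 6.82e-16) and so was Mrc2 (-0.15). Ddr2, a collagen receptor kinase, was not called at -0.06 (SE 0.03, adjusted p = 0.0817). In the coronal suture relative to the others, 11 of the 30 processing genes had a more positive and 4 a more negative difference (7.98% and 12% of all genes), among them Loxl3 (2.15, SE 0.25) and Bmp1 (1.06, SE 0.11), and of the receptors 4 were more positive, among them Itga11 (0.93, SE 0.10), and 1 more negative. With age 6 processing genes were higher and 2 lower in SM (6.73% and 7.22% of all genes), and 9 were higher and 0 lower in OFs (6.67% and 6.77%), with Loxl2 at 0.78 (SE 0.07) and 0.55 (SE 0.08).

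The coronal single-cell libraries, from pooled sutures, showed which cells held the collagen transcripts. After filtering, the E16.5 libraries kept 466 and 337 cells (median UMI counts 2501 and 2121) and the E18.5 libraries 2412 and 1577 cells (18476 and 7131). The v3 chemistry was used at E16.5 and v2 at E18.5, which cannot be told apart from age, and the ages are not compared. The names of all 4 deposited matrices carry the code E16 whereas the labels give E18.5 for 2 of them, and the labels were followed. The matrices labelled E18.5 list 27998 genes and those labelled E16.5 list 31053, and barcodes with over 800 genes numbered 2625 and 1624 at E18.5 and 497 and 359 at E16.5. The study's stated cell numbers are the same as these at E18.5 and higher at E16.5. The libraries shared 1 barcode at E16.5 and 5 at E18.5. Cells were clustered without the 44 genes and named from marker lists, and with 2 libraries per age the values are a description. Of the 44 genes, 30 had at least 10 UMIs over all kept cells at E16.5 and 38 at E18.5. Of the named classes, the hypodermis-like cells at E16.5 came from library 1 in 121 of 122 cells, at E18.5 the glia-like cells from library 1 in 15 of 15 and the erythroid cells from library 2 in 78 of 79, and an unnamed E18.5 cluster led by Xist, Rps18-ps3 and Tnc, with Tsix also among its leading genes, came from library 2 in 496 of 499 cells, so these may be a library rather than a type.

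In osteoblast-like cells the 44 genes took 11.6% and 14.9% of UMIs in the 2 libraries of E16.5, then 11.4% and 17.9% in those of E18.5. Macrophage-like cells should make little fibrillar collagen. Their share was 0.0531% and 0.0728% at the earlier age, then 0.877% and 0.514%. The part of free RNA, or of cells caught together, in that share was not tested. Chondrocyte-like cells had 4.80% and 5.27%, then 3.10% and 6.26%, and endothelial-like cells 0.476% and 0.563%, then 0.873% and 1.01%. The pericyte-like cells at E18.5 had 0.955% and 2.05%, and the proliferating cells 2.27% and 3.62%. Osteoblast-like cells had the highest share at both ages. At E18.5 the endothelial-like share was at the macrophage-like share in library 1 and above it in library 2, and at E16.5 it was above it in both.

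**Figure D5:**
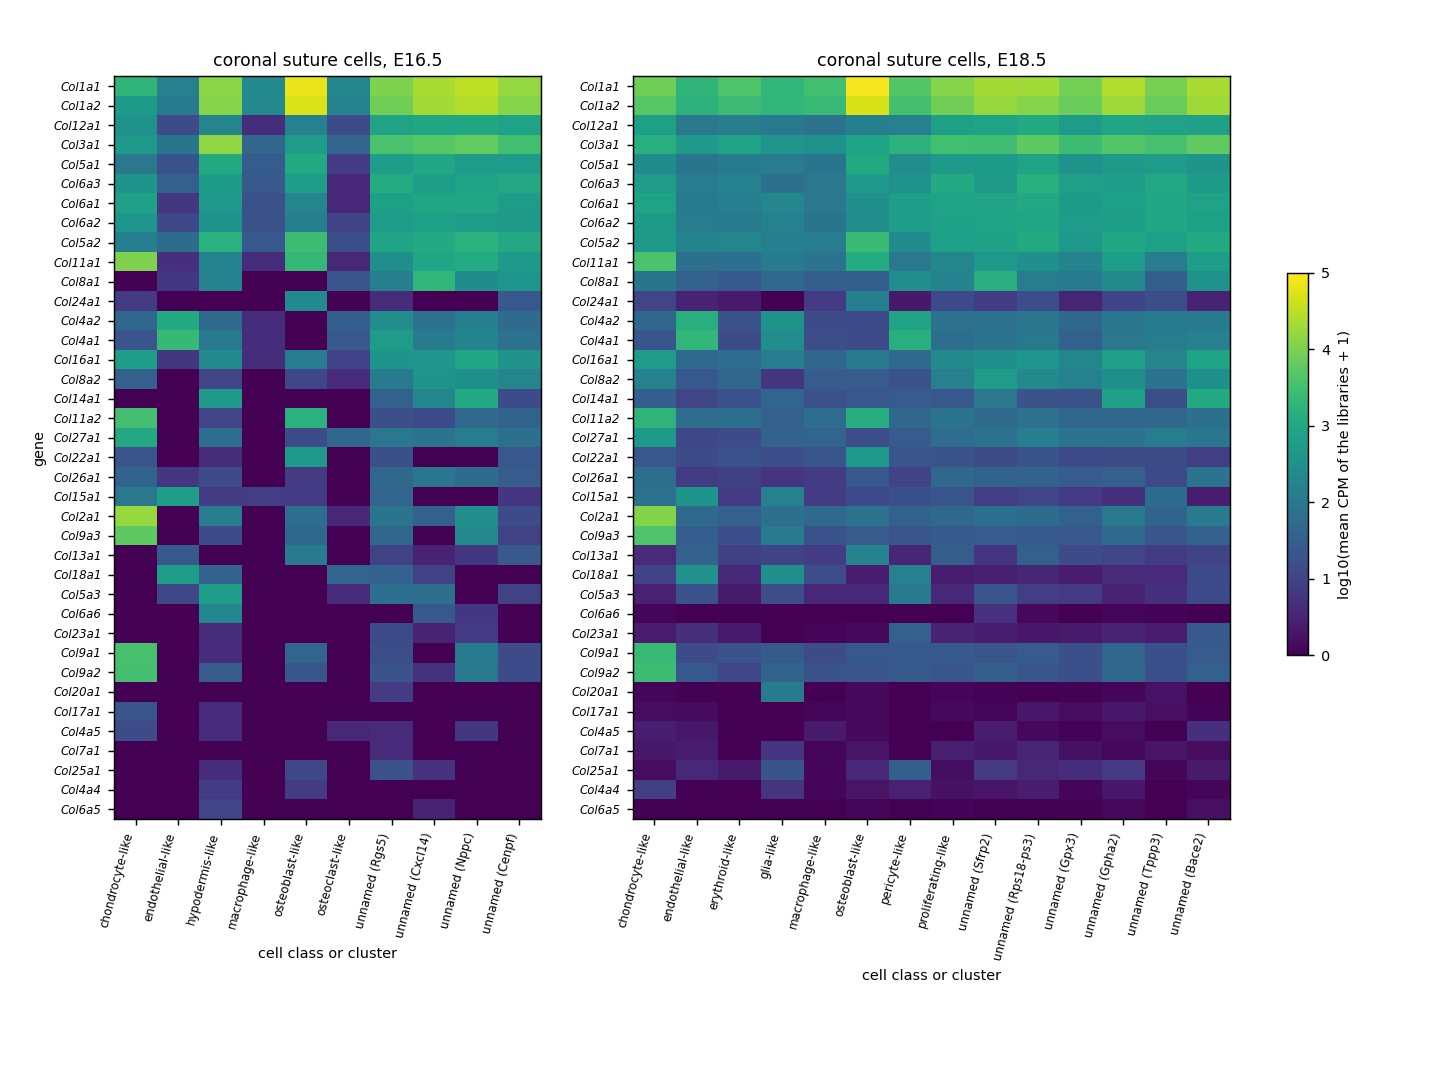
Log10 of mean CPM plus 1 for the 38 collagen genes with at least 10 UMIs at either age, by cell class or cluster, at E16.5 (left) and E18.5 (right); lighter is higher, and an unnamed cluster carries the name of its first leading gene other than Xist and Tsix. Col22a1, Col24a1 and Col13a1 are lightest in osteoblast-like cells, Col2a1 and the Col9 genes in chondrocyte-like cells, and Col4a1, Col15a1 and Col18a1 in endothelial-like cells.

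Of the 4 genes higher in OFs in each bulk set, 3 had their highest mean in osteoblast-like cells at both ages. Col22a1 stood at 394 and 634 CPM in osteoblast-like cells of the 2 E16.5 libraries, where 65 of its 76 UMIs lay, and at 350 and 582 CPM at E18.5. The next class was at 21.4 and 22.0 CPM, and macrophage-like cells were at 0 and at 22.7 and 17.6 CPM. Col24a1 averaged 231 CPM (29 of 34 UMIs) and 143 CPM, and Col13a1 averaged 107 CPM (12 of 26 UMIs) and 163 CPM, with endothelial-like cells next at 24.4 and 36.1 CPM. Col11a2 was highest in chondrocyte-like cells (3173 and 1762 CPM), with osteoblast-like cells next (1588 and 1307 CPM).

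Among the most abundant chains, Col1a1 averaged 71060 CPM in osteoblast-like cells at E16.5 and 86995 CPM at E18.5, and the next cluster was at 32555 and 25950 CPM. Col3a1 was highest in hypodermis-like cells at E16.5 (14850 CPM) and in an unnamed cluster led by Bace2 and Atp1b1 at E18.5 (5922 CPM). Macrophage-like cells were at 231 and 3117 CPM for Col1a1 and at 43.0 and 372 CPM for Col3a1. The cartilage chain Col2a1 was at 16890 and 11864 CPM in chondrocyte-like cells, with 93.3% and 75.7% of its UMIs, and the next cluster was at 290 and 115 CPM. Col9a1, Col9a2, Col9a3, Col11a1 and Col27a1 were also highest there at both ages.

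The other genes had their highest level in several kinds of cell. Col4a1 was highest in endothelial-like cells (2218 and 2032 CPM), with pericyte-like cells next at E18.5 (1340 CPM), and Col15a1 and Col18a1 were highest in endothelial-like cells at both ages. Col14a1 was highest at E18.5 in the cluster led by Bace2 and Atp1b1 (1138 CPM), and Col8a1 in clusters led by Cxcl14 and Chodl at E16.5 (2058 CPM) and by Sfrp2 and Igfbp3 at E18.5 (1450 CPM). Col5a3 was highest in hypodermis-like cells at E16.5 (625 CPM) and in pericyte-like cells at E18.5 (112 CPM), and Col6a6 had 63 of its 74 UMIs at E16.5 in hypodermis-like cells. Col20a1 had 24 of its 38 UMIs at E18.5 in 15 glia-like cells, which all came from library 1.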

How the data were processed

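Gene counts of laser-captured regions and UMI counts of single cells were analysed. Per the labels, RNA was amplified (Ovation RNA-Seq System V2) and libraries were made with Nextera XT. The submitters' processing notes name cutadapt, STAR 2.5.3a and mm10, and per the file headers the authors deposited read-pair counts per gene from featureCounts 1.6.4 (unstranded, GENCODE vM22). Per the paper's methods the single-cell count matrices came from Cell Ranger. A deposited table of log2 ratios between OFs and SM holds the authors' own comparisons and was not used. The labels give each embryo a litter identifier shared across its regions. Replicates are different embryos, and most share all of the identifier but its last number with another of their group. Litter was not modelled in the age comparisons.

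Levels are CPM on TMM library sizes, and differences came from edgeR 4.0.16 (quasi-likelihood, R 4.3.3) on genes with at least 1 CPM in more than 10% of libraries, with Benjamini-Hochberg adjustment over all genes and a threshold of 0.05. The mean, suture and set comparisons share one fit of the 100 libraries with the embryo as a block, with the dispersion trend taken from group means, and the age comparisons used 40 SM libraries (19920 genes) and 40 sums of an embryo's OFs (18924 genes). Pairing comes from the labels, and over 60 pairs of SM and OF libraries the median correlation of deviations was 0.0505 within embryos and -0.0121 between them. SE is the log2 difference over the square root of F. The fits were tested on simulated data. Alternatives were DESeq2 1.42.0, limma-voom (limma 3.58.1), 3 other scalings, 2 other filters, no block, the second coronal libraries, each set by itself and each replicate left out. Leaving out the coronal sets, single ages and the second libraries in the comparison of sutures were added after seeing the data.

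Cells with over 800 genes and within 3 median absolute deviations were clustered in scanpy 1.11.5 (Leiden, resolution 0.8) without the 44 genes. A class needed at least 3 of its list's genes among a cluster's leading 10, a rule set after clusters were seen. No doublet caller was run. Promoters are from RefSeq (GRCm38.p6). Values by library were given for the 4 highest and 4 lowest differences in the mean comparison, among called genes averaging at least 10 CPM, and for Col1a1, Col1a2, Col3a1, Col2a1, Col4a1, Col6a3, Col8a1 and Col12a1, and each of the 44 genes is accounted for by type. In other comparisons all called genes up to 12 were named, otherwise the 6 highest and 6 lowest. The gene family, the other gene lists and the tests were chosen with earlier results of these data known.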

Additional observations from a re-analysis of the deposited data

Results flagged for a closer look

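In 320 groups of 5 libraries, counting each of the named genes and the collagen share of counts, 19 had a highest or lowest library far from the rest of its group by Dixon's test (on log2 CPM for the genes), and chance alone gives about 1 in 20 such groups. The collagen share of counts stood apart in coronal parietal OF at E16.5 (6.09%, highest), coronal frontal OF at E18.5 (7.34%, highest), coronal parietal OF at E18.5 (8.84%, highest) and sagittal parietal OF at E16.5 (4.74%, lowest). Replicate 2 of the coronal OFs at E18.5 was the high library of Col1a1 in frontal OF (30418 CPM) and parietal OF (44613 CPM), of Col1a2 in frontal OF (32548 CPM) and of Col11a2 in frontal OF (262 CPM) and parietal OF (467 CPM). Col2a1 was at 0 CPM in 1 library of coronal SM at E18.5.

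Other libraries that stood apart were those with 10.7 CPM of Col22a1 and 3206 CPM of Col3a1 in lambdoid SM at E16.5, 22.3 CPM of Col11a2 in sagittal SM and 47.7 CPM of Col13a1 in sagittal parietal OF at E18.5, and 12785 CPM of Col1a2 in sagittal parietal OF at E16.5. In the frontal suture at E18.5, single libraries were low for Col6a3 (1304 CPM) and Col12a1 (8506 CPM) in SM and for Col12a1 in OF (2780 CPM), and in lambdoid parietal OF at E18.5 Col6a3 was at 2594 CPM in 1 library.

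The difference between OFs and SM differed between the coronal suture and the mean of the others, by edgeR's quasi-likelihood test of that difference, for 23 collagen genes, of which the named ones were Col28a1 (-2.26), Col22a1 (-1.94), Col15a1 (-0.99), Col4a1 (-0.41), Col6a3 (0.27), Col3a1 (0.34), Col1a1 (1.49), Col11a1 (1.56), Col9a1 (2.22), Col14a1 (3.08), Col6a6 (3.25) and Col2a1 (3.45). It differed between E18.5 and E16.5 for Col24a1 (-0.90) and Col26a1 (0.82).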

How the results depend on the processing

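In the mean of the 8 sets, the counts of collagen genes higher and lower in OFs stayed between 11 and 12 and between 19 and 20 when 1 replicate was left out. Without the coronal sets Col5a2 (-0.06, adjusted p = 0.174), Col5a1 (-0.14, adjusted p = 0.0336) and Col11a1 (-0.14, adjusted p = 0.0452) changed sign, and with the second coronal libraries Col4a5 (0.15, adjusted p = 0.894) and Col20a1 (0.46, adjusted p = 0.542) did so at the coronal suture at E16.5; the cause was not tested. Counts that moved by over 1.5 times were the following. With no replicate block, the genes lower at the coronal suture at E16.5 numbered 9 and those higher in interparietal OF at E16.5 numbered 0. Of the named calls, those given above beside their result were lost without the block, and no other was. With each set fitted by itself, 4 were lower at the coronal and 23 at the frontal suture at E16.5. With limma-voom, 2 had a smaller OF difference at E18.5, 3 were lower with age in OFs and 3 lower in interparietal OF at E16.5. With no filter, 4 had a larger and 4 a smaller OF difference at E18.5, and 2 were lower in interparietal OF at E18.5. With unscaled totals, 2 were lower in coronal frontal OF at E16.5 and 5 at E18.5, and 3 were lower in interparietal OF at E16.5. With the second coronal libraries, 2 were higher and 1 lower in coronal frontal OF at E16.5, and without the coronal sets 10 were higher with age in SM. No scaling turned the direction of a named call. In single cells, the collagen share of E16.5 UMIs moved with the gene minimum (0.72% in endothelial-like and 0.0452% in macrophage-like cells at 500 genes, 0.0381% in macrophage-like and 0.0383% in osteoclast-like cells at 1000), and that of E18.5 erythroid cells to 0.557% at 500, 4.30% at 1000 and 0.825% with the collagen genes kept in the clustering. With 1 replicate left out, the ranges were 2 to 4 lower in coronal less others, 7 to 15 lower at the coronal and 8 to 13 at the frontal suture at E16.5, 3 to 8 higher and 2 to 5 lower in coronal frontal OF at E16.5 and 5 to 10 lower at E18.5, and 0 to 2 higher and 2 to 6 lower in interparietal OF at E16.5. At this depth 3 of the 44 genes did not pass the minimum level and could not be tested.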

Other observations

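The 16 libraries of complete sutures at E18.5, 4 for each suture, have no embryo identifier in the labels and entered no comparison. Their labels call them normalization controls and give each as replicate 1 of a set named C, IF, L or S. The 4 libraries of a suture may therefore not be separate samples. The cartilage chains spanned a wide range in the complete sutures: Col2a1 was at 2507 to 4363 CPM in lambdoid, 467 to 772 CPM in sagittal, 74.3 to 140 CPM in coronal and 30.1 to 45.6 CPM in frontal sutures, and Col9a3 at 559 to 713, 138 to 173, 16.51 to 21.2 and 8.98 to 11.5 CPM in the same order. The highest SM or OF library at E18.5 or E16.5 held 253 CPM of Col2a1. Col22a1, the gene with the largest difference between OFs and SM, was at 120 to 170 CPM in coronal, 76.2 to 106 CPM in lambdoid, 29.9 to 47.55 CPM in sagittal and 26.2 to 41.6 CPM in frontal complete sutures. Col8a1 was at 1154 to 1194 CPM in sagittal, 785 to 875 CPM in frontal, 297 to 361 CPM in coronal and 306 to 338 CPM in lambdoid complete sutures.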
